A study of Saccharomyces cerevisiae with 3 samples.

Results

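Reads of Get4 crosslinks were examined over a stretch of yeast 25S rRNA from G651 to A1390, which is about domain II of the large subunit rRNA. The stretch was chosen by position, with earlier results of these data known. It comprises 740 of the 6983 rDNA nucleotides listed in the data, or 21.8% of RDN25-2 (YNCL0021C), and ends where the window around h46/h47 (C1391 to A1454) begins. Its borders only approximate domain II, because the data carry no annotation of rRNA domains or helices. The method, CRAC, isolates a tagged protein after crosslinking in living cells and sequences the RNA fragments attached to it. A single library came from wild type BY4741 yeast, which carries no tag and serves as the background control. The other 2 libraries (Get4-HTP 1 and Get4-HTP 2) came from BY4741 yeast in which Get4 carries a C-terminal His-Tev-ProtA tag at its genomic locus. All cells grew exponentially in low uracil medium with 4-thiouracil and were crosslinked in culture with UV-A light. The wild type library was amplified with more PCR cycles than Get4-HTP, so strain and amplification cannot be told apart. The labels do not say whether both Get4-HTP cultures came from a single clone.

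Domain II is one of the large rRNA domains of the 60S subunit. It contributes the helices of the stalk base and the GTPase-associated center, where translation factors bind, and helices that bridge to the 40S subunit. Get4 forms a complex with Get5 that links Sgt2 to Get3 when tail-anchored proteins are handed over, and the complex can bind ribosomes. A uridine crosslinked through 4-thiouracil is often read as C, so a T-C substitution marks the crosslink. Sequences are given in DNA letters as deposited, and positions count from the first nucleotide of 25S.

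The sequences that carried the main signals are shown first. The highest peak reads as follows, with T935, T939 and T942 in capitals:
920 to 969: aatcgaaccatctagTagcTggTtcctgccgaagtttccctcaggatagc
The 3′ end of the stretch, next to the h46/h47 window, differed most between libraries and is shown with T1378, T1384 and T1388 in capitals:
1311 to A1390: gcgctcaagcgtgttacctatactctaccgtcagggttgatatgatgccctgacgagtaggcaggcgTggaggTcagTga
A second run of bins that differed between libraries is shown with each T that had at least 10 substitutions in Get4-HTP 2 in capitals:
751 to 830: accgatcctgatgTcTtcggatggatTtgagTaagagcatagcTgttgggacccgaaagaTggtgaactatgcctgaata
Further crosslink sites are shown with 10 nucleotides on either side and the T in capitals:
T1081: tgttacttaaTtgaacgtgga
T1114: gagcttttagTgggccatttt
T1144: gaactggcgaTgcgggatgaa
T1188: gaatacacgcTcatcagacac
T1220: ttagttcatcTagacagccgg

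The libraries held 107659 to 933943 mapped reads, with wild type the shallowest. Where 3 values follow each other, their order is wild type, Get4-HTP 1, Get4-HTP 2. Reads other than those with 1 T-C mutation had been discarded by the authors, and RDN25-2 had 8571, 19270 and 21411 reads against 8567, 19265 and 21410 substitutions. Substitutions thus count nearly every read once, at its crosslink, whereas hits count a read at all nucleotides it covers. In the headers, the sample codes for wild type and Get4-HTP 1 have a common ending, which the code for Get4-HTP 2 lacks. With 1 wild type library, no difference from wild type has a replicate check on that side, and no p values are given. Ranges in parentheses are Wilson 95% intervals, which cover counting error only.

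Every nucleotide of the stretch was covered in each library, with 5 to 664 hits (wild type), 5 to 491 (Get4-HTP 1) and 6 to 2316 (Get4-HTP 2). The median was 34, 53 and 53 hits per nucleotide, and substitutions numbered 1408, 1841 and 3195. Relative to all mapped reads, coverage was lower with tagged Get4 than without. There were 428715 hits per 1000000 mapped reads in wild type, compared with 99749 (Get4-HTP 1) and 121838 (Get4-HTP 2). The mean for Get4-HTP, 110794 ± 15619 (SD, n = 2), was 0.258 times wild type, and the distance to wild type exceeded this spread. Reads with a substitution in the stretch were 1.31% of the mapped reads of wild type (1.24% to 1.38%), but only 0.299% (0.286% to 0.313%) and 0.342% (0.330% to 0.354%) with Get4-HTP. Mapped reads include those of tRNA and other RNA, so this scale also moves with the make-up of each library. With hits on 18S in place of mapped reads, the ratio to wild type was 0.552 for Get4-HTP 1 but 1.29 for Get4-HTP 2, whose direction turned.

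As a share of 25S hits outside the h46/h47 window, the Get4-HTP libraries lay on opposite sides of wild type. Domain II held 18.5% of these hits in wild type. The share was 14.1% for Get4-HTP 1 and 43.6% for Get4-HTP 2. As the stretch makes up 22.2% of these nucleotides, it was below even coverage in the first 2 libraries and above it in the last. By substitutions the shares were 17.4% (16.6% to 18.2%), 13.3% (12.8% to 13.9%) and 42.5% (41.4% to 43.6%). These intervals do not overlap, yet the distance of the Get4-HTP mean (28.8% ± 20.8, SD, n = 2) to wild type was smaller than its SD. Get4-HTP 1 was 0.763 times wild type, with which it shares the code ending. Get4-HTP 2 was 2.36 times wild type and 3.09 times Get4-HTP 1. With the window kept in the denominator, the shares were 17.5%, 9.92% and 14.8%, lower with Get4-HTP than in wild type in both cases.

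**Figure D1:**
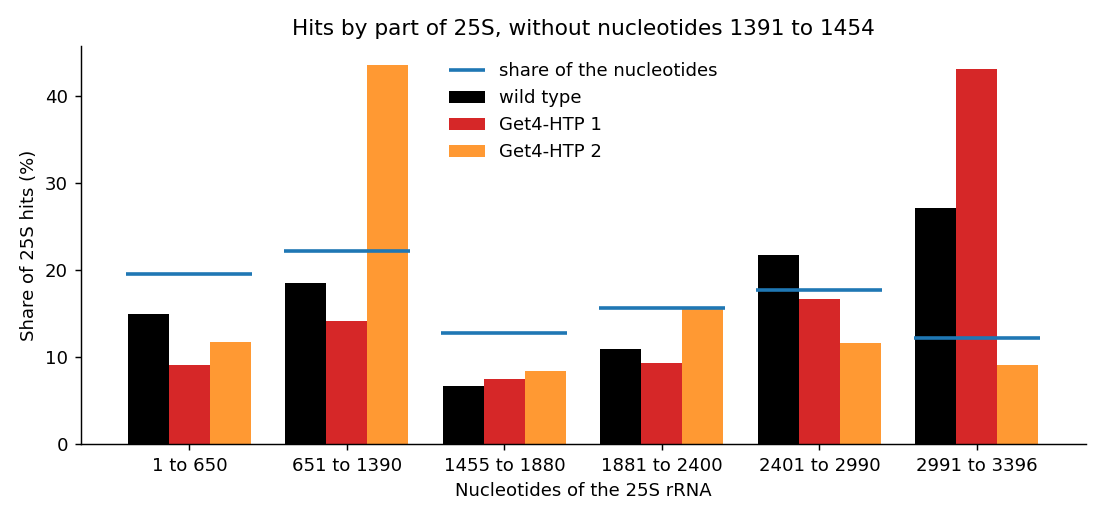
Share of 25S hits outside the h46/h47 window (%, bars) in 6 parts of 25S for the 3 libraries, with the share of the nucleotides in each part as blue lines. Domain II, the second group of bars, holds 43.6% of the hits of Get4-HTP 2 against 18.5% in wild type and 14.1% for Get4-HTP 1.

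Among 6 parts of 25S, domain II ranked 3 by share of hits in wild type and Get4-HTP 1 and ranked 1 in Get4-HTP 2. In the former libraries the part from A2991 to the 3′ end ranked first, with 27.1% and 43.1% of the hits. That part held 9.12% in Get4-HTP 2, so the order of the parts differed between the Get4-HTP libraries themselves.

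The highest peak of domain II spanned nucleotides 920 to 969 and was present in wild type as well as with Get4-HTP. These 50 nucleotides held 22506, 16998 and 36615 hits, or 48.8%, 27.7% and 32.2% of all hits in domain II. The share was lower in both Get4-HTP libraries, and their mean lay 18.8 percentage points below wild type with an SD of 3.16 (n = 2). For Get4-HTP 2 this rested on the 3′ end of the stretch. Without the end from nucleotide 1311 on, the peak held 51.7%, 32.0% and 50.7%, so Get4-HTP 2 was close to wild type. The maximum was 664 hits at nucleotide 945 in wild type, 491 at nucleotide 939 in Get4-HTP 1 and 1011 at nucleotide 941 in Get4-HTP 2, which was 19.5, 9.26 and 19.1 times the median nucleotide. Wild type was the highest relative to mapped reads, with a mean of 4181 hits per 1000000 reads against 553 and 784. Of all 25S hits outside the window, however, the peak took up 9.02%, 3.91% and 14.0%. On that scale it was lower than wild type in Get4-HTP 1 and higher in Get4-HTP 2. Upstream of nucleotide 1311 and outside the peak, bins of 20 nucleotides reached at most 77.9, 137 and 171 mean hits per nucleotide.

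**Figure D2:**
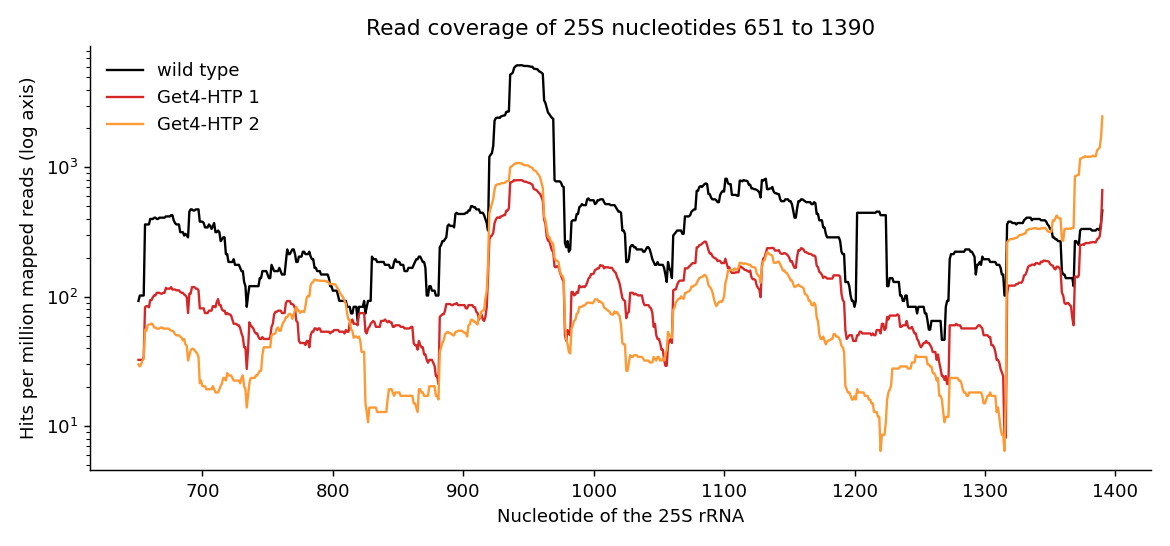
Hits per 1000000 mapped reads (log axis) at each nucleotide from G651 to A1390 for the 3 libraries. All libraries have a peak between 920 and 969, where wild type reaches 6168, and Get4-HTP 2 rises to 2480 at A1390.

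The peak had common edges but differed in shape. In wild type and Get4-HTP 1 the largest step up led to nucleotide 936, from 292 to 562 hits and from 298 to 471 hits. In Get4-HTP 2 it led to nucleotide 920, from 169 to 414 hits. The largest step down led to nucleotide 962 in every library. Hits at nucleotide 930, on the 5′ shoulder, were 40.5%, 52.7% and 69.7% of the maximum. At nucleotide 965, on the 3′ side, they were 43.1%, 34.0% and 26.8%. At 50% of its maximum the peak was 28 nucleotides wide (wild type), 36 (Get4-HTP 1) and 39 (Get4-HTP 2). It began at nucleotides 936, 926 and 923 at this height and ended at 963, 961 and 961.

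**Figure D3:**
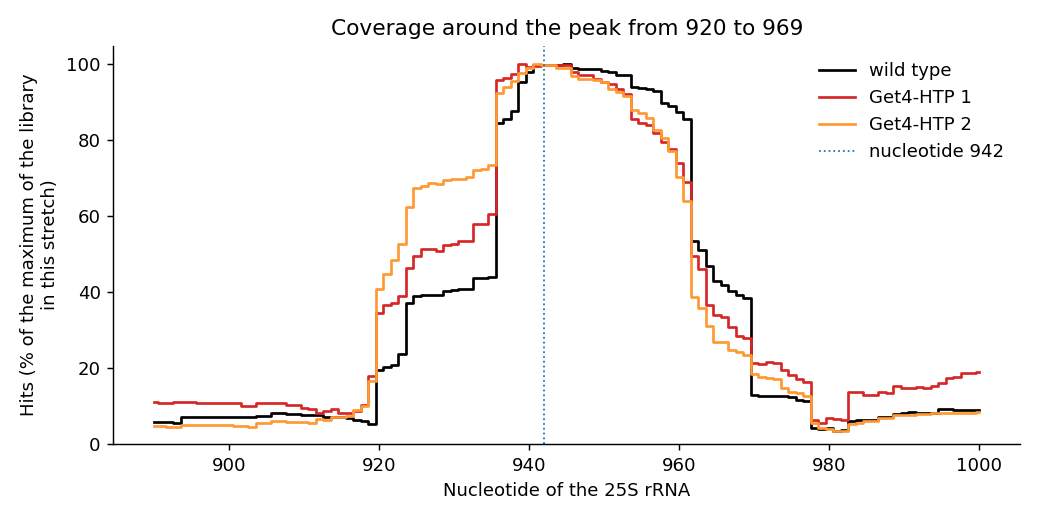
Hits around the peak from 920 to 969 as a percentage of the highest nucleotide of each library, with T942 marked. The 5′ shoulder at nucleotide 930 stands at 40.5% (wild type), 52.7% (Get4-HTP 1) and 69.7% (Get4-HTP 2), and all libraries fall at nucleotide 962.

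Crosslinks within the peak were concentrated at T942, a site of the untagged control as well as of Get4-HTP. It carried 519 of the 675 substitutions of the peak (wild type), 388 of 511 (Get4-HTP 1) and 674 of 1026 (Get4-HTP 2). Among the 856 T of 25S outside the window it ranked 1, 5 and 1 by number of substitutions. T942 held 36.9% of the substitutions of domain II in wild type (34.4% to 39.4%). It held 21.1% with Get4-HTP in both libraries (19.3% to 23.0% and 19.7% to 22.5%). Without the end from nucleotide 1311 on, the shares were 38.9% (36.3% to 41.5%), 24.2% (22.2% to 26.3%) and 33.2% (31.2% to 35.3%), still below wild type but no longer alike between the Get4-HTP libraries. The share of reads over T942 that were substituted there was 78.3% of 663 (75.0% to 81.3%), 79.2% of 490 (75.4% to 82.5%) and 66.7% of 1010 (63.8% to 69.6%). Wild type and Get4-HTP 1 overlapped, and Get4-HTP 2 was lower. Per 1000000 mapped reads, T942 had 4821, 631 and 722 substitutions.

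The other T positions of the peak were rarely substituted. At T939 it was 24 of 633, 26 of 491 and 46 of 988 reads, or 3.79%, 5.30% and 4.66%. At T935, on the 5′ shoulder, it was 13 of 292, 16 of 298 and 74 of 742 reads. The 9.97% of Get4-HTP 2 (8.02% to 12.3%) exceeded the 4.45% of wild type (2.62% to 7.47%), while Get4-HTP 1 (3.33% to 8.54%) overlapped both. T922 had 6.47%, 6.01% and 1.84% substituted reads. By the mean over the libraries, T942, T935 and T922 had the highest substituted shares among the 13 T positions with at least 100 hits in each library, of 177 T positions in all. These 13 all lie in the peak, as wild type reached 100 hits nowhere else in the stretch. The ranking thus leaves out sites of lower coverage such as T1144, with 57.6%, 69.7% and 73.6% substituted reads.

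The 3′ end of domain II, from 1311 on, separated the libraries most. It held 2665, 8289 and 41637 hits, or 1.07%, 1.91% and 15.9% of 25S hits outside the window. The ratio to wild type was 1.79 and 14.9 in the Get4-HTP libraries. Relative to mapped reads the ratios were 0.544 and 1.80, so only Get4-HTP 2 lay above wild type on both scales. Coverage increased in steps at fixed nucleotides. From nucleotide 1316 to 1317 it went from 11 to 39 hits in wild type, from 5 to 65 in Get4-HTP 1 and from 16 to 245 in Get4-HTP 2. All libraries shared this edge. The last step was at the border of the window, where A1390 had 50, 411 and 2316 hits against 40, 216 and 1593 at nucleotide 1389.

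Substitutions come from the same reads and differed as the hits did, so the choice of this end enters them as well. This end had 73, 237 and 1166 substitutions, or 0.900% (0.717% to 1.13%), 1.71% (1.51% to 1.95%) and 15.5% (14.7% to 16.4%) of those in 25S outside the window. The leading site, T1384, had 7 substitutions (wild type), 36 (Get4-HTP 1) and 356 (Get4-HTP 2). It held 0.497% (0.241% to 1.02%), 1.96% (1.42% to 2.70%) and 11.1% (10.1% to 12.3%) of the substitutions of domain II, and these intervals do not overlap. T1388 had 6, 31 and 198 substitutions, and T1378 had 5, 27 and 155. Relative to mapped reads, T1384 was above wild type only in Get4-HTP 2, with 65.02, 58.5 and 381 substitutions per 1000000 reads. At T1378 and T1388 the shares of reads substituted there had overlapping intervals, at 13.9%, 16.9% and 13.8% for T1378 and at 17.1%, 17.2% and 14.9% for T1388.

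Part of the reads over this end were crosslinked outside it. As each read carries 1 substitution, and A1390 was covered by 2316 reads in Get4-HTP 2 while the end had 1166 substitutions, at least 1150 of those reads (49.7%) were substituted elsewhere, provided that none spanned more than 80 nucleotides. For Get4-HTP 1 it was at least 174 of 411 reads (42.3%), and in wild type the counts set no such limit. The h46/h47 window itself had 459, 5444 and 13895 substitutions. Without the end from 1311 on, domain II still held 32.9% of 25S hits outside the window in Get4-HTP 2, against 17.6% for wild type and 12.4% for Get4-HTP 1. When the peak from 920 to 969 was also left out, the shares were 9.35%, 8.81% and 19.4%. Get4-HTP 1 then lay close to wild type, and Get4-HTP 2 remained above both.

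Bins of 20 nucleotides were compared as shares of 25S hits outside the window. A bin was counted as higher where its ratio to wild type was at least 2 in both Get4-HTP libraries, and as lower where it was at most 0.5 in both. In domain II, 2 of 37 bins were higher, against 5.45% of the 165 bins of 25S. These were 811 to 830 (ratios 2.23 and 3.52) and 1371 to A1390 (ratios 2.70 and 31.6). The count of lower bins was 0, against 3.64% in 25S. In neither direction was the share of bins above that of 25S as a whole. Per 1000000 mapped reads, 0 bins were higher in both, against 0% in 25S, and 28 were lower in both, against 83%. On that scale 1 bin was higher in Get4-HTP 2, against 0.606%, while 32 were lower in Get4-HTP 1, against 85.5%, and 31 in Get4-HTP 2, against 94.5%.

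Get4-HTP 2 accounted for most differences. In this library alone, 13 of 37 bins were at least 2 times wild type, against 18.8% in 25S, and 1 was at most 0.5 times, against 13.9%. For Get4-HTP 1, 2 bins were higher, against 7.88%, and 2 were lower, against 6.67%. Compared with Get4-HTP 1, 12 bins of Get4-HTP 2 were at least 2 times higher, against 11.5% in 25S, and 0 were at most 0.5 times, against 9.09%. Over the 37 bins the median ratio to wild type was 1.01 in Get4-HTP 1 but 1.61 in Get4-HTP 2. Over all 165 bins these medians were 1.01 and 0.985. Across the 37 bins, log2 hits had Pearson's r = 0.883 between wild type and Get4-HTP 1, 0.831 between the Get4-HTP libraries and 0.644 between wild type and Get4-HTP 2. The bins share their sequence, and adjacent bins share reads.

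**Figure D4:**
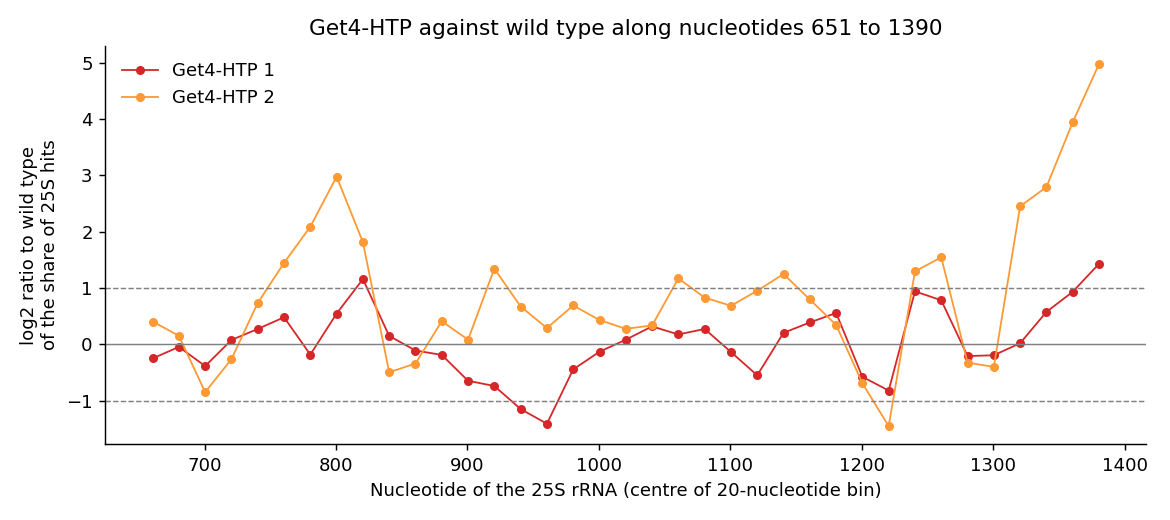
log2 ratio of each Get4-HTP library to wild type in the share of 25S hits, for 37 bins of 20 nucleotides from G651 to A1390, with dashed lines at a ratio of 2 and 0.5. Get4-HTP 2 exceeds a ratio of 2 in a row of bins between 751 and 830 and again from 1311 on. It also exceeds 2 in the bins 911 to 930, 1051 to 1070, 1131 to 1150, 1231 to 1250 and 1251 to 1270. Get4-HTP 1 exceeds 2 in the bins 811 to 830 and 1371 to A1390.

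Besides the 3′ end, 1 further run of at least 4 consecutive bins exceeded a ratio of 2 in Get4-HTP 2, between 751 and 830. Coverage there was low, with 7 to 25 hits per nucleotide (wild type), 25 to 57 (Get4-HTP 1) and 10 to 127 (Get4-HTP 2). Substitutions numbered 41, 103 and 179, or 0.506% (0.373% to 0.685%), 0.745% (0.615% to 0.903%) and 2.38% (2.06% to 2.75%) of those in 25S outside the window. Get4-HTP 2 lay above the other libraries, which overlap. Its most substituted T was T782, with 42 of 94 reads, against 2 of 24 in wild type and 4 of 25 in Get4-HTP 1. Relative to mapped reads wild type was the highest, with 145, 61.5 and 80.5 mean hits per nucleotide and 1000000 reads. Both runs, and T782, were singled out after their values had been seen.

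A plateau from 1071 to 1170 was the longest run of bins outside the peak in which the mean of the libraries was at or above even coverage of domain II, though some of its bins were below it in wild type and Get4-HTP 2. It held 2.68%, 2.76% and 5.11% of 25S hits outside the window, so wild type and Get4-HTP 1 lay close together and Get4-HTP 2 was 1.90 times wild type. T1144 had the highest mean share of substitutions in it, with 34 of 59, 92 of 132 and 117 of 159 reads substituted. The substituted shares of 57.6% (44.9% to 69.4%), 69.7% (61.4% to 76.9%) and 73.6% (66.2% to 79.8%) overlap.

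At T1114 and T1081, within the plateau, a larger part of the reads was substituted with Get4-HTP than in wild type. At T1114 it was 16 of 84 reads (wild type), 52 of 103 (Get4-HTP 1) and 130 of 169 (Get4-HTP 2). These are 19.0% (12.1% to 28.7%), 50.5% (41.0% to 59.9%) and 76.9% (70.0% to 82.6%), with no overlap. At T1081 it was 7 of 76, 49 of 154 and 52 of 130 reads. The Get4-HTP intervals (24.98% to 39.5% and 32.0% to 48.6%) overlap each other and lie above that of wild type (4.53% to 17.8%). Of the 29 T positions of the plateau these 2 had both Get4-HTP intervals above that of wild type, and 1 had both below. This was T1096, with 13 of 58, 5 of 117 and 3 of 85 reads substituted, or 22.4% (13.6% to 34.7%), 4.27% (1.84% to 9.62%) and 3.53% (1.21% to 9.87%). Outside the plateau, T905 and T1220 also had both Get4-HTP intervals below that of wild type, and no T of domain II there had both above. The same count was not made over the T of 25S outside domain II, so no background share stands beside it. At T905 it was 20 of 50, 4 of 53 and 3 of 57 reads. At T1220 it was 34 of 46, 9 of 32 and 1 of 6 reads. T1096, T905 and T1220 were named, and the plateau was singled out, after their values had been seen. Relative to mapped reads, T1114 and T1081 were not higher than wild type in both Get4-HTP libraries. T1114 had 149, 84.6 and 139 substitutions per 1000000 reads, and T1081 had 65.02, 79.7 and 55.7. T1188, downstream of the plateau, had 20 of 31, 81 of 90 and 40 of 45 reads substituted. There wild type (46.9% to 78.9%) lay below Get4-HTP 1 (82.1% to 94.6%) and overlapped Get4-HTP 2 (76.5% to 95.2%).

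**Figure D5:**
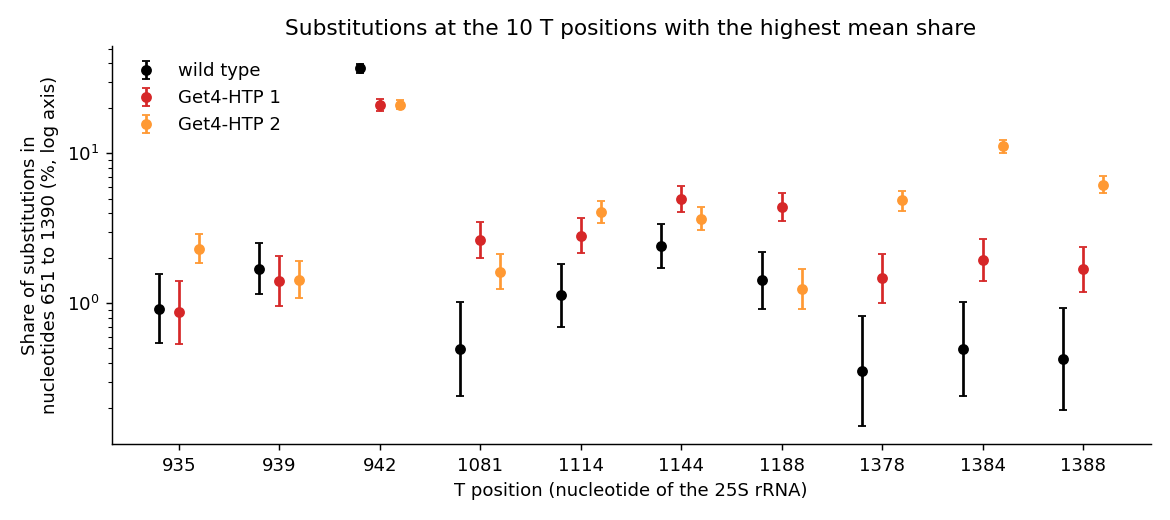
Share of the substitutions of domain II (%, log axis) at the 10 T positions with the highest mean share, for the 3 libraries, with Wilson 95% intervals as bars. T942 is highest in every library, at 36.9% in wild type and 21.1% with Get4-HTP, and T1378, T1384 and T1388 stand highest in Get4-HTP 2.

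The lowest ratio of Get4-HTP 2 to wild type in domain II was found in the bin from 1211 to 1230, which was singled out after its values had been seen. It had 750, 728 and 277 hits and 43, 22 and 4 substitutions. In wild type 34 of these substitutions were at T1220, in 46 reads, against 9 in 32 reads for Get4-HTP 1 and 1 in 6 reads for Get4-HTP 2. Wild type coverage went from 10 to 48 hits between nucleotides 1201 and 1202 and from 46 to 13 hits between 1224 and 1225. Get4-HTP 1 had 28 and 31 hits, and Get4-HTP 2 had 15 and 18, at 1201 and 1202. The sharp edges were thus found in the library with more PCR cycles, whose part in them was not tested.

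The lowest bins by mean share over the libraries were 1251 to 1270, with 142, 444 and 464 hits, 731 to 750, with 282, 599 and 502, and 1231 to 1250, with 209, 723 and 560. The order differed between libraries. The lowest bin was 1251 to 1270 in wild type and Get4-HTP 1 but 1211 to 1230 in Get4-HTP 2, where these 3 bins ranked 8, 10 and 11 from the bottom.

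Substitutions were spread over most of the 177 T positions. A substitution was found at 147, 161 and 150 of them, and at 124 in every library. Those without one were 16.9%, 9.04% and 15.3%. Most T of 25S outside the window also had one. Ranked by substitutions, the T without any began there at rank 695, 753 and 691 of 856. At 4 T positions none was found in any library, with coverage of at most 26, 53 and 30 hits there. It took 9, 15 and 6 T positions to hold 50% of the substitutions. The 10 T positions with the highest mean share together held 46.2%, 43.3% and 57.7%. They include T1378, T1384 and T1388. These held 4.85%, 11.1% and 6.20% in Get4-HTP 2 against 0.355%, 0.497% and 0.426% in wild type. As the mean used to choose the positions includes Get4-HTP 2, the higher sum of that library is partly set by the choice. The sums thus do not compare the libraries.

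The base 5′ of the T went with the share of substituted reads. With T942 left out, T positions after A had 12.9%, 15.1% and 11.2% of their reads substituted, and those after G had 9.88%, 12.1% and 15.2%. After C it was 5.09%, 7.34% and 5.83%, and after T it was 5.44%, 5.33% and 4.02%. These values keep the other T of the peak from 920 to 969, where most substitutions fell at T942. In wild type, T939 and T946, both after C, had 24 of 633 and 4 of 658 reads substituted. How far the peak sets the gaps between bases was not tested. In the rest of 25S outside the window, T positions after A (15.5%, 15.2% and 10.4%) were likewise above those after T (8.56%, 9.08% and 6.30%). After G it was 15.2%, 14.0% and 16.6% there, and after C it was 10.7%, 9.18% and 7.98%. Of the 10 T positions with the highest mean share, 6 follow a G, 2 an A, 2 a C and 0 a T, whereas 31.1% of all T positions of domain II follow a G. The 6 include T942 and T935 of the same peak, and the neighbours T1378, T1384 and T1388. By substitutions in domain II the last ranked 58, 37 and 46 in wild type, 10, 6 and 8 in Get4-HTP 1 and 4, 2 and 3 in Get4-HTP 2. Bins held 2 to 8 T, and this number was weakly related to log2 hits across the 37 bins (Pearson's r = 0.186, 0.161 and 0.191). These are descriptions across positions that share reads and libraries.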

How the data were processed

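Samples were grouped by their labels as wild type (1 library) and Get4-HTP (2 libraries). Reads had been trimmed by the authors (Flexbar), collapsed on their UMI, aligned with Bowtie 2 (version 2.3.4.2 in the submitters' processing notes) allowing 1 mismatch, and restricted to those carrying one T-C mutation. The headers name a folder of Bowtie 1 output. Genome build and pyCRAC version are not given in the sources used here, so no chromosome coordinates are printed. The deposited files hold raw counts of hits, substitutions and deletions per nucleotide (pyPileup), without normalization. Deletions were 0 in domain II. As only reads with such a mutation are present, the share of substituted reads is relative to reads crosslinked at some T. RDN25-1 and RDN25-2 are both annotated, and reads of identical copies cannot be told apart.

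Hits and substitutions were summed over domain II and divided by mapped reads or by their sum over RDN25-2 without the h46/h47 window. A count of 3 reads, the detection floor, is 0.00279%, 0.000488% and 0.000321% of mapped reads (wild type, Get4-HTP 1, Get4-HTP 2). Bins of 20 nucleotides began at nucleotide 11, and 1% of the mean bin served as pseudocount. Peaks were runs of at least 10 nucleotides at 2 times even coverage or more in the mean of the libraries. Named by rule were the highest nucleotides, the peaks and their leading T, the 10 T positions with the highest mean share of substitutions, the 3 with the highest share of substituted reads (at least 100 hits in each library), the bins higher or lower in both Get4-HTP libraries and the lowest bins. Exceptions are stated where they occur. The stretch and these rules were chosen with earlier results of these data known. No test between strains was run. Wilson intervals have a confidence level of 95%. The binning and peak procedures were tested on simulated data. Alternatives concerned the quantity counted, the denominator, the 3′ end, bin width, pseudocount, low counts, fold limit, peak limit and each Get4-HTP library alone. Python 3.11.15, numpy 2.4.6, scipy 1.17.1, pandas 2.3.3 and matplotlib 3.10.9 were used.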

Additional observations from a re-analysis of the deposited data

How the results depend on the processing

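Of 43 alternative settings over 7 results, 3 turned the direction and 18 moved the value by more than the SD between Get4-HTP libraries, or a count by more than 1.5 times. The other 22 include 8 for the share of 25S hits, where that SD exceeds the difference itself, so these say nothing about its stability. The difference in share of 25S hits between the Get4-HTP mean and wild type was 10.4 percentage points. It ranged from -4.38 without Get4-HTP 2 to 25.1 without Get4-HTP 1, and was -5.13 with all of 25S as denominator, which adds the h46/h47 window. The ratio per 1000000 mapped reads, 0.258, was 0.215 without the last 40 nucleotides and 0.923 over hits on 18S. The 2 bins higher in both libraries became 4 with T-C substitutions, 1 without the last 40 nucleotides and 1 with a pseudocount of 10%. They became 0 per 1000000 mapped reads, 5 with a fold limit of 1.5, and 2 to 13 with a single Get4-HTP library. With bins of 50 nucleotides the count was 0, but only 14 bins were tested and none covered 1371 to A1390. Of the 2 bins, only 811 to 830 could thus be counted at that width. The 0 bins lower in both became 2 with T-C substitutions, 2 with bins of 10 nucleotides, 28 per 1000000 mapped reads, 1 with a fold limit of 1.5, and 1 to 2 with a single Get4-HTP library. Without the last 40 nucleotides, the difference in the share held by the peak from 920 to 969 was -12.7 instead of -18.8 percentage points, and that of the 10 T positions, then chosen anew, was -1.21 instead of 4.26. Those 40 nucleotides enter both denominators and, in Get4-HTP 2, hold 27.8% of the hits of the stretch. Without the end from nucleotide 1311 on, the difference for the peak was -10.4 percentage points, and that for T942 was -10.2 instead of -15.8. The causes of the other changes were not tested. The settings that leave out the end from nucleotide 1311 on were chosen after seeing the data. No paired analysis was possible because wild type has 1 library. Ratios are least precise where wild type coverage is low, at a median of 34 hits per nucleotide.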
